A study of Mus musculus with 23 samples.

Results

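The acute phase genes of hepatocytes were described here as 10 genes, *Saa1*, *Saa2*, *Saa3*, *Lcn2*, *Hp*, *Orm1*, *Orm2*, *Hamp*, *Itih3* and *Itih4*, which were taken by their gene symbols from a table of RNA-seq counts. All 10 were found among the 27179 genes of that table. RNA was sequenced from liver tissue without visible tumors of 15 female mice. The study asked how the livers of mice with an activated *Braf* allele differ from control livers, and what changes when *Icmt*, the gene of the enzyme that methylates prenylated proteins such as RAS, is also deleted. The 6 Ctrl mice carried wild-type *Braf*, floxed *Trp53* on both alleles (TRP53 flx/flx) and 1 floxed *Icmt* allele (ICMT flx/+). The 6 ABpIF/+ mice carried the same *Trp53* and *Icmt* alleles and in addition the knock-in allele BrafCA/+, which gives BRAF V600E. The 3 ABpIF/F mice differed from these in having both *Icmt* alleles floxed (ICMT flx/flx). Every group, Ctrl included, carried Alb-Cre, so recombination was driven by the albumin promoter and reaches hepatocytes, and bile duct cells as far as they pass through an albumin-expressing stage, but not the immune, endothelial and stellate cells of the same tissue. The genotype labels of single mice write the *Braf* alleles of the ABpIF/+ and ABpIF/F groups as BRAF +/+, while the description of the series gives BrafCA/+. Of the Ctrl mice 5 carry another strain label than all ABpIF/+ and ABpIF/F mice and 1, mouse BG3, carries the same one. The labels give no ages. The study's text describes ABpIF/F mice of different ages, all with liver tumors, but does not tie these ages to mouse names, so age was not used here.

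In the acute phase response, cytokines such as IL-6 and IL-1 reach hepatocytes and act through STAT3, NF-kB and C/EBP factors, and the cells then secrete more of some plasma proteins and less of others. Serum amyloid A, haptoglobin, alpha-1-acid glycoprotein (orosomucoid) and lipocalin 2 are among the proteins that rise in mice, and inter-alpha-trypsin inhibitor heavy chains belong to the same plasma pool. Hepcidin, the product of *Hamp*, is the hepatocyte hormone that lowers iron export from cells, and it answers both to IL-6 through STAT3 and to iron through BMP receptors and SMAD proteins.

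The counted reads came to 24742910 to 32262649 for each mouse, of which 8 are named by 2 samples. Values are given as CPM, which are counts scaled to library size after TMM normalization. The targeted gene *Icmt* was at 27.8 to 34.7 CPM in Ctrl, at 27.8 to 37.4 CPM in ABpIF/+ and at 15.2 to 16.6 CPM in ABpIF/F mice. The 12 hepatocyte markers, of which 5 are also on one of the lists of acute phase proteins used below, summed to 104000 to 139000 CPM in Ctrl, 184000 to 252000 CPM in ABpIF/+ and 132000 to 226000 CPM in ABpIF/F livers, and all 12 were detected in each group. The 11 stellate cell markers summed to 230 to 301 CPM in Ctrl, 61.8 to 131 CPM in ABpIF/+ and 251 to 410 CPM in ABpIF/F livers, and the 10 bile duct cell markers to 51.3 to 89.4, 55.5 to 177 and 240 to 1200 CPM. In whole liver, fewer cells of a type and less RNA per cell cannot be told apart. In each mutant group 1 mouse stood apart in several of the 10 genes, BG40 among ABpIF/+ and BG90 among ABpIF/F mice. Results that rest on them are given with and without them below. Both were picked after their values in *Saa1*, *Saa2*, *Orm1* and *Orm2* were seen, so for these genes the fit without them is no test. A score of 8 circadian clock genes also differed between groups, from -0.689 to -0.315 in 5 Ctrl mice and 1.16 in the Ctrl mouse malpa387, from -0.645 to -0.0398 in ABpIF/+ and from 0.633 to 1.79 in ABpIF/F mice.

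The genes behaved in 3 ways. *Lcn2*, *Hp* and *Itih3* rose in both mutant groups, in every mouse. *Saa1*, *Saa2*, *Orm1* and *Orm2* were above every Ctrl mouse in BG40 and BG90 alone and below every Ctrl mouse in all other ABpIF/+ and ABpIF/F livers. *Hamp*, *Itih4* and *Saa3* were not called in any comparison, *Itih4* missing the limit on size in ABpIF/F vs Ctrl and *Saa3* that on the adjusted p in ABpIF/+ vs Ctrl. Genes were called by edgeR's quasi-likelihood test, at p-values below 0.01 after adjustment over all genes and changes of 2-fold or more, and ABpIF/+ vs Ctrl and ABpIF/F vs Ctrl share the same 6 Ctrl mice.

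In ABpIF/+ vs Ctrl 3 of the 10 genes were called higher and 0 lower. The background was 4.69% of the 27179 genes higher and 5.35% lower, and among the 12316 genes averaging 1 CPM or more, as all 10 do, 8.21% and 9.39%. At an unadjusted p under 0.05 1 of the 10 genes was lower in edgeR, *Saa3*, and DESeq2 called the same 1 gene lower. In ABpIF/F vs Ctrl again 3 were called higher and 0 lower, beside 4.55% and 2.38% of all genes and 7.53% and 5.04% of those averaging 1 CPM or more. No member was lower there at an unadjusted p under 0.05, nor in DESeq2. In ABpIF/+ vs ABpIF/F 0 of 10 were called in either direction by edgeR and 0 by DESeq2. The background was 1.76% of all genes higher and 5.49% lower, and 3.72% and 8.50% of those averaging 1 CPM or more. DESeq2 gave no adjusted p for *Saa1*, *Saa2* and *Orm2* in any comparison, so it could not call them. At an unadjusted p under 0.05 1 gene was higher in ABpIF/+ than in ABpIF/F mice, *Hamp*, and 2 were lower, *Itih3* and *Itih4*. The median log2 fold change of the 10 genes was 0.46 in ABpIF/+ vs Ctrl, 1.90 in ABpIF/F vs Ctrl and -0.66 in ABpIF/+ vs ABpIF/F. The median of the 12316 genes was 0.02, -0.00 and 0.04. These medians include BG40 and BG90 and were not computed without them. In a fit without these mice, chosen after seeing the data, *Saa1*, *Saa2*, *Saa3*, *Orm1* and *Orm2* were negative in both comparisons with Ctrl. There *Lcn2*, *Hp*, *Itih3* and *Itih4* stayed positive in both, and *Hamp* was at 0.86 in ABpIF/+ and -0.30 in ABpIF/F vs Ctrl.

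**Figure D1:**
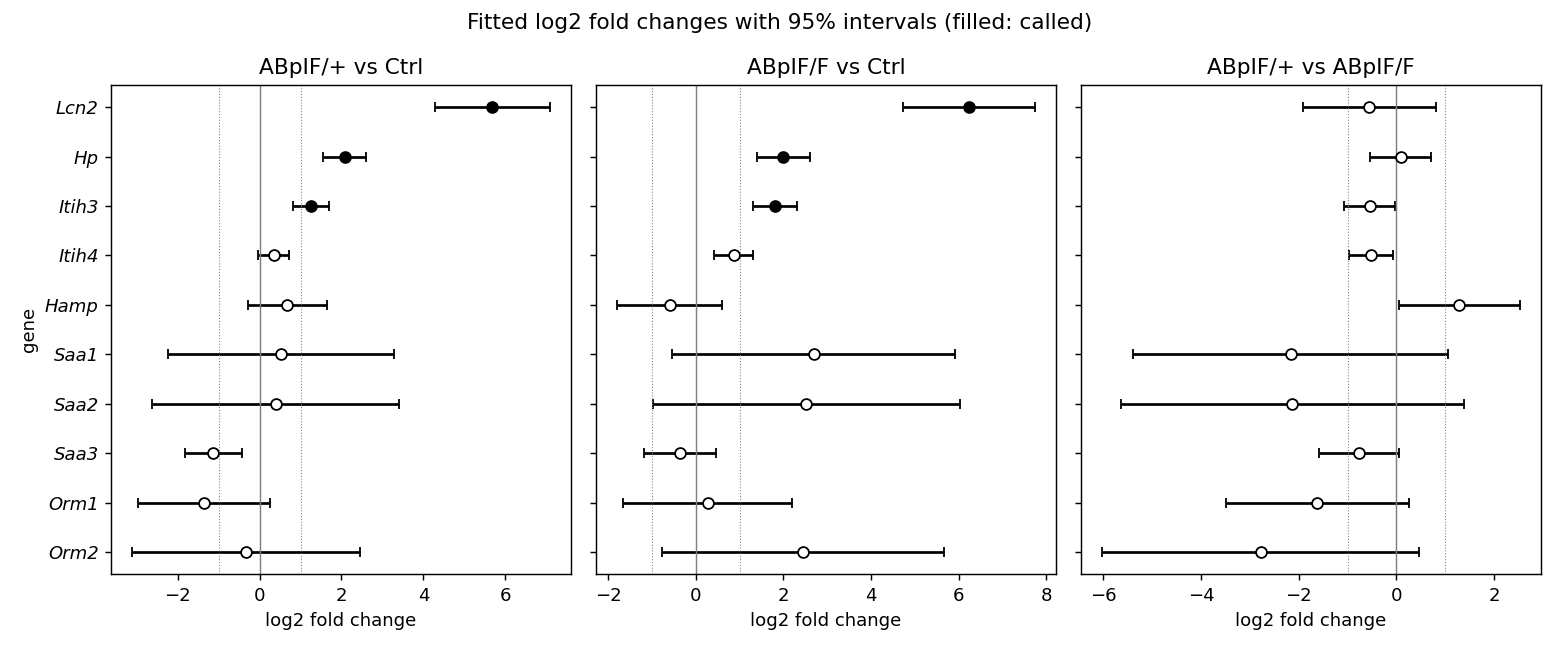
Fitted log2 fold change of each of the 10 genes (x axis) in the 3 comparisons, with 95% intervals from the edgeR fit; filled points are called genes and dotted lines mark a 2-fold change. *Lcn2*, *Hp* and *Itih3* are called in both comparisons with Ctrl and no gene is called in ABpIF/+ vs ABpIF/F, where the intervals of *Saa1*, *Saa2* and *Orm2* span more than 6 log2 units.

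*Lcn2* (chromosome 2, 32384633 to 32388252, minus strand, GRCm38) encodes lipocalin 2, which binds bacterial siderophores and so withholds iron from bacteria. It was at 5.84 to 10.0 CPM in the 6 Ctrl mice, with a median of 8.36. In ABpIF/+ mice it was between 121 and 891 CPM, with a median of 277, and in the ABpIF/F mice BG183, BG90 and BG38 it was at 209, 1069 and 545 CPM. The lowest mutant liver thus lay far above the highest Ctrl liver, and the levels among mutant livers differed 7.39-fold within ABpIF/+ and 5.11-fold within ABpIF/F. The log2 fold change was 5.68 (SE 0.65, edgeR adjusted p = 1.98e-05) in ABpIF/+ vs Ctrl and 6.23 (SE 0.69, edgeR adjusted p = 3.37e-05) in ABpIF/F vs Ctrl. Between the mutant groups it was -0.55, with a 95% interval from -1.92 to 0.82. *Lcn2* is also made by neutrophils. The 13 neutrophil markers summed to 2.86 to 5.35 CPM in Ctrl, with *Ly6g* at 0 in all Ctrl mice, to 3.55 to 13.0 CPM in ABpIF/+ mice and to 5.84, 43.1 and 114 CPM in BG183, BG90 and BG38. In ABpIF/+ livers *Lcn2* was highest, at 891 and 780.1 CPM, in BG40 and BG31, whose neutrophil markers summed to 5.84 and 3.55 CPM. Among ABpIF/F livers BG183 was lowest in both *Lcn2* and neutrophil markers, while *Lcn2* was highest in BG90 and the markers in BG38. The part of neutrophils in the *Lcn2* values was not tested.

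The 250 bases before the RefSeq start of *Lcn2* (GRCm38.p6, chr2:32387740-32387989, minus strand) are shown because no gene of the set changed more. They were searched, as were those of the other members in the RefSeq table, on both strands for the letters of 5 motifs: STAT3 (TTCNNNGAA), C/EBP (TTGCGNAA or TTNNGCAAT), NF-kB (GGNNTTTCC or GGGANNNCC), the BMP response element (GGCGCC) and HNF1 (GTTAATNAT). Matches are in capitals here and below, and this window holds none.
Lcn2: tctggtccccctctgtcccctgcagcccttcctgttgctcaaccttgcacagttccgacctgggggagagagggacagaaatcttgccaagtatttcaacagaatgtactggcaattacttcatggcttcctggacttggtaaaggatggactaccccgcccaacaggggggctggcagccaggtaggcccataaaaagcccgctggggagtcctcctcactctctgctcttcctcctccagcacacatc

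*Hp* (chromosome 8, 109575128 to 109579172, minus strand) encodes haptoglobin, the plasma protein that captures free hemoglobin. Its CPM ranged from 1193 to 1709 in Ctrl (median 1326) and from 3814 to 9104 in ABpIF/+ mice (median 5312), and were 3111, 9271 and 4400 in BG183, BG90 and BG38. No mutant liver overlapped the Ctrl range. The rise was 4.22-fold in ABpIF/+ (log2 fold change 2.08, SE 0.26, edgeR adjusted p = 2.35e-06) and 3.98-fold in ABpIF/F livers (1.99, SE 0.29, edgeR adjusted p = 4e-05). Between the mutant groups the difference was 0.08 on the log2 scale, with a 95% interval from -0.55 to 0.71.

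*Itih3* (chromosome 14, 30908572 to 30923760, minus strand) encodes a heavy chain of the inter-alpha-trypsin inhibitors, which are transferred to hyaluronan in the extracellular matrix. Ctrl livers held 713 to 1048 CPM (median 770.3) and ABpIF/+ livers 1587 to 2668 CPM (median 1871). BG183, BG90 and BG38 held 1873, 4863 and 1848 CPM, so that BG183 and BG38 lay within the ABpIF/+ range and BG90 above it. The log2 fold change was 1.25 (SE 0.21, edgeR adjusted p = 7.88e-05) in ABpIF/+ vs Ctrl and 1.80 (SE 0.24, edgeR adjusted p = 1.31e-05) in ABpIF/F vs Ctrl. Without BG40 and BG90, a fit chosen after seeing the data, the latter was 1.16 (edgeR adjusted p = 0.00023) and the difference between the mutant groups was -0.01.

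All 3 rises kept their direction in every alternative fit. They lost the threshold in 2 of them besides the 4-fold limit described in the closing part. With BG3 as the only Ctrl mouse, so that Ctrl is a single animal of the mutants' strain label, the log2 fold changes of *Lcn2*, *Hp* and *Itih3* were 6.02, 1.79 and 1.45 in ABpIF/+ (edgeR adjusted p = 0.114, 0.0903 and 0.0847) and 6.53, 1.67 and 1.96 in ABpIF/F vs Ctrl (edgeR adjusted p = 0.107, 0.138 and 0.0307). When the clock score entered the fit as a covariate all 3 stayed called in ABpIF/+ vs Ctrl. In ABpIF/F vs Ctrl the values were then 6.13, 1.60 and 1.49 (edgeR adjusted p = 0.0145, 0.0678 and 0.0362). Every ABpIF/F mouse had a higher clock score than 5 of the Ctrl mice, so this fit cannot separate clock score from genotype.

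**Figure D2:**
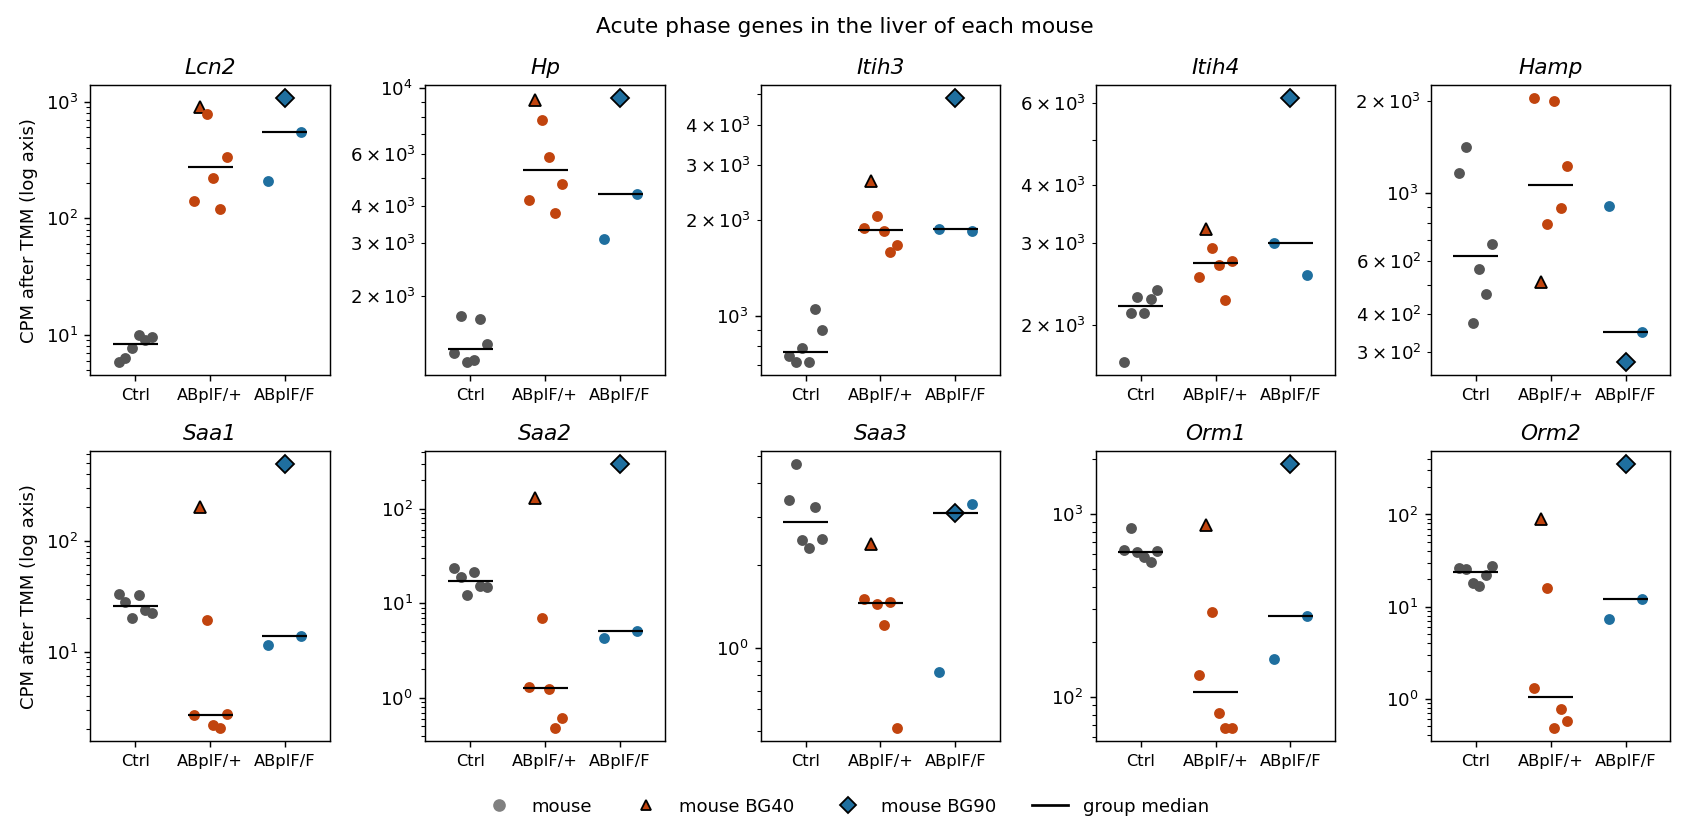
CPM after TMM scaling (y axes, logarithmic, 1 scale per gene) of the 10 genes in each of 6 Ctrl, 6 ABpIF/+ and 3 ABpIF/F mice; lines are group medians, the triangle is BG40 and the diamond BG90. All mutant livers lie above all Ctrl livers for *Lcn2*, *Hp* and *Itih3*, whereas for *Saa1*, *Saa2*, *Orm1* and *Orm2* only BG40 and BG90 do and the other mutant livers lie below Ctrl.

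*Itih4*, a related chain that circulates without the bikunin subunit, lies on the same chromosome from 30886476 to 30902353 on the plus strand, 37.3 kb from *Itih3* by the distance of the gene starts. It was at 1659 to 2380 CPM (median 2198) in Ctrl, 2264 to 3216 CPM (median 2715) in ABpIF/+ and 2993, 6155 and 2558 CPM in BG183, BG90 and BG38. Of the ABpIF/+ livers 5 of 6 were above the highest Ctrl liver, and all 3 ABpIF/F livers were. The log2 fold change was 0.35 (SE 0.18, edgeR adjusted p = 0.192) in ABpIF/+ and 0.87 (SE 0.22, edgeR adjusted p = 0.00633) in ABpIF/F vs Ctrl, the latter a 1.82-fold difference that passed on p but not on size. Without BG40 and BG90 it was 0.35 (edgeR adjusted p = 0.301), and it was past both limits, at 1.02 and 1.09, in the fits without BG183 or without BG38. The 250 bases before its start hold 1 STAT3 match, TTCCGAGAA, from 51 bases before the start, a motif found in 7.02% of the 32851 promoters in the RefSeq table.

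The other heavy chain genes did not follow *Itih3* alike. *Itih5* was called higher in both comparisons with Ctrl, from 23.9 ± 7.48 CPM in Ctrl to 136 ± 39.8 in ABpIF/+ (SD, n = 6 each) and 205 ± 26.2 in ABpIF/F mice (SD, n = 3), with log2 fold changes of 2.50 (edgeR adjusted p = 1.67e-07) and 3.10 (edgeR adjusted p = 1.47e-07). *Itih2*, on chromosome 2 with *Itih5*, differed from Ctrl by 0.79 and 0.84 on the log2 scale (edgeR adjusted p = 4.95e-05 and 0.000293), under the 2-fold limit. *Itih1*, 19.5 kb from *Itih3* by the gene starts, had a log2 fold change of -0.57 in ABpIF/+ vs Ctrl (edgeR adjusted p = 0.00447) and was not called at 0.21 in ABpIF/F vs Ctrl. All 6 ABpIF/+ livers held less *Itih1* than any Ctrl liver, at 466 to 559 CPM against 677 to 863 CPM, and less than any ABpIF/F liver.

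*Saa1* and *Saa2* encode the serum amyloid A proteins that circulate on high-density lipoprotein and are the classical acute phase reactants of the mouse. They lie head to head on chromosome 7, *Saa1* on the minus strand from 46740497 to 46742980 and *Saa2* on the plus strand from 46751790 to 46754313, with their starts 8.81 kb apart. The 250 bases before their RefSeq starts (*Saa1* chr7:46742981-46743230, *Saa2* chr7:46751583-46751832) are shown because both genes followed the same mice. The sequences are identical in 238 of 251 aligned positions (94.8%), and both hold 1 C/EBP match, ATTGCACAA, from 183 and 184 bases before the start, a motif found in 2.44% of the promoters in the table.
Saa1: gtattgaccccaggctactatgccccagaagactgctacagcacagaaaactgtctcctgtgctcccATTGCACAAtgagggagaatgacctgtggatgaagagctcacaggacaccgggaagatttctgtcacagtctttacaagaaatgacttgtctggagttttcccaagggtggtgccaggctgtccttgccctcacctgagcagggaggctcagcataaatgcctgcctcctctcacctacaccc
Saa2: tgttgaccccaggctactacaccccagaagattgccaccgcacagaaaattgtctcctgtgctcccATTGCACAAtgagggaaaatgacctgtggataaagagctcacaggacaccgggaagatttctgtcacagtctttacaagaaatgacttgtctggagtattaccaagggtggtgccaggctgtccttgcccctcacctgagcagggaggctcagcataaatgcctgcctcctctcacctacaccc

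*Saa1* was at 20.0 to 33.4 CPM in Ctrl, with a median of 25.8, and the 6 livers differed by no more than 1.67-fold. Among ABpIF/+ mice it was at 202 CPM in BG40, at 19.2 CPM in BG31 and between 2.05 and 2.73 CPM in the other 4 mice. Among ABpIF/F mice it was at 492 CPM in BG90, and at 11.5 and 13.8 CPM in BG183 and BG38. BG40 and BG90 were therefore 10.5 and 35.5 times above the next mouse of their groups, and every other mutant liver lay below the lowest Ctrl liver. The group comparisons averaged over these opposite values. The log2 fold change was 0.53 (SE 1.27, edgeR adjusted p = 1) in ABpIF/+ and 2.69 (SE 1.49, edgeR adjusted p = 0.296) in ABpIF/F vs Ctrl, and without BG40 and BG90 it was -2.22 (edgeR adjusted p = 0.0213) and -1.10 (edgeR adjusted p = 0.52).

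*Saa2* was likewise highest in BG40 and BG90, with BG31 next among ABpIF/+ mice. Ctrl livers held 12.4 to 23.7 CPM (median 17.0), the ABpIF/+ liver BG40 held 130 CPM, BG31 7.06 CPM and the other 4 between 0.480 and 1.32 CPM. BG90 held 296 CPM and BG183 and BG38 4.34 and 5.10 CPM. The log2 fold changes of 0.40 in ABpIF/+ and 2.53 in ABpIF/F vs Ctrl were not called (edgeR adjusted p = 1 and 0.391). Without BG40 and BG90 *Saa2* was called lower in ABpIF/+ vs Ctrl, at -3.07 (edgeR adjusted p = 0.00367). It was at -1.93 in ABpIF/F vs Ctrl (edgeR adjusted p = 0.184). Both mice were left out after they were seen to be the highest in *Saa1* and *Saa2*. These p-values therefore cannot serve as a test of a fall in either gene. In the ABpIF/+ livers other than BG40 and BG31 only 15 to 35 reads were counted on *Saa2*. *Saa1* and *Saa2* are near-identical in sequence, and how reads that fit both were assigned was not given in the sources used here, so their separate values are uncertain. *Saa1* held 58.5 to 61.8% of the counts of both in Ctrl, and 60.9% (95% Wilson interval 59.9 to 62.0%) in BG40 and 62.4% (61.7 to 63.0%) in BG90, against 63.4 to 81.6% in the other mutant livers. Wilson intervals cover counting error only.

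*Saa3*, whose product is made largely outside hepatocytes, in macrophages and fat, was low in every liver. It was at 2.31 to 4.68 CPM (67 to 114 reads) in Ctrl, 0.512 to 2.40 CPM in ABpIF/+ and 0.816, 3.11 and 3.35 CPM in BG183, BG90 and BG38. BG40 was the highest of the ABpIF/+ mice here too, but lay within the Ctrl range, as did BG90. The log2 fold change in ABpIF/+ vs Ctrl was -1.13 (SE 0.33, edgeR adjusted p = 0.0135), which missed the limit of 0.01, and DESeq2 and a fit of these 2 groups alone called it lower (adjusted p = 0.00291 in DESeq2 and 0.00444 in edgeR). The 14 macrophage markers summed to 442 to 613 CPM in Ctrl, 187 to 330 CPM in ABpIF/+ and 381, 718 and 939 CPM in BG183, BG90 and BG38, all 14 being detected in each group, and their part in the *Saa3* values was not tested. *Saa4*, the serum amyloid A gene that is expressed without inflammation, was called lower in ABpIF/+ vs Ctrl. Its level was 211 ± 32.4 CPM in Ctrl and 85.2 ± 35.4 CPM in ABpIF/+ mice (SD, n = 6 each), or -1.31 on the log2 scale (edgeR adjusted p = 0.000293), with all 6 ABpIF/+ livers below all Ctrl livers.

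**Figure D3:**
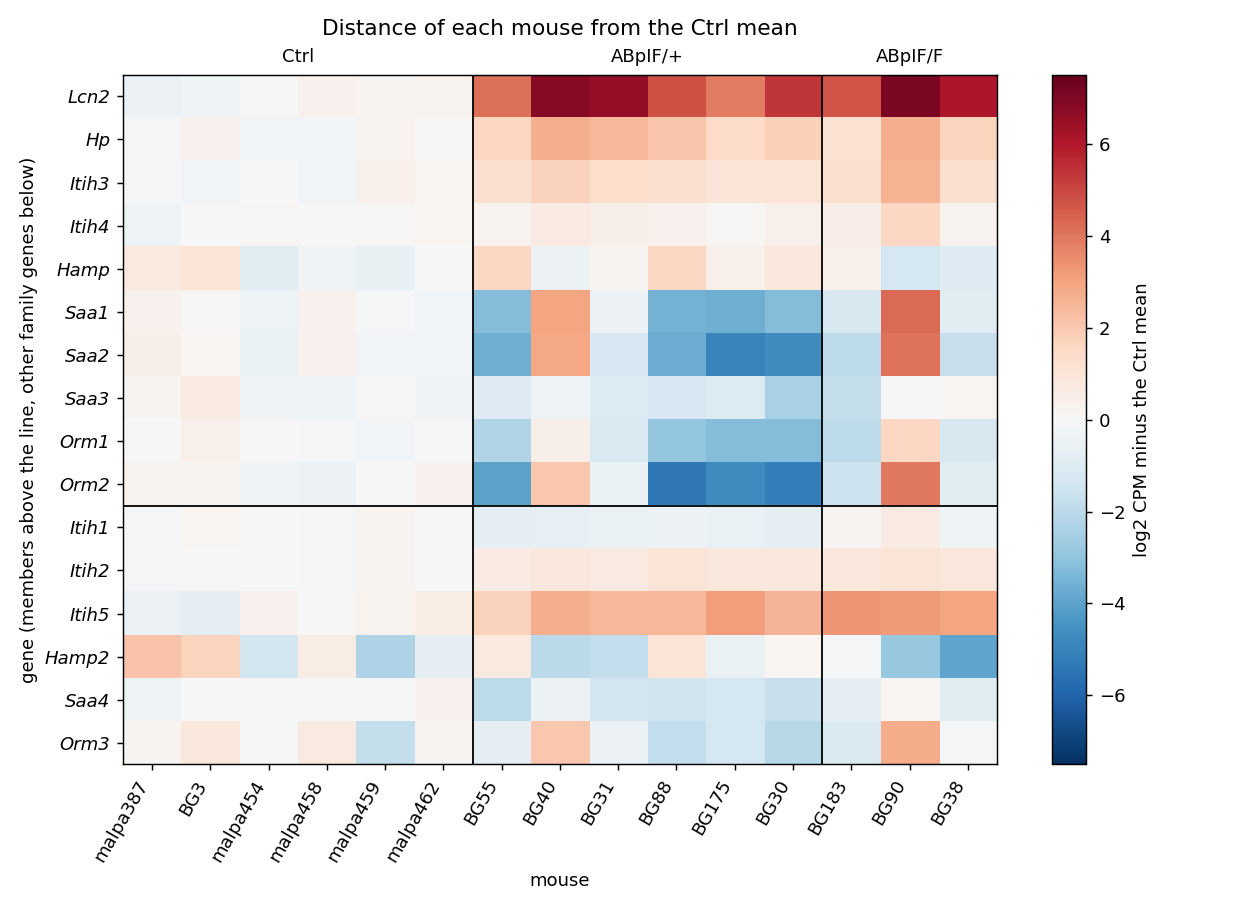
log2 CPM of each gene in each mouse minus the mean of the 6 Ctrl mice (color scale, in log2 units), for the 10 genes above the line and the other genes of their families below it; mice are columns grouped as Ctrl, ABpIF/+ and ABpIF/F. *Saa1*, *Saa2*, *Orm1*, *Orm2* and *Orm3* are positive in BG40 and BG90. The same genes are negative in the other mutant livers, with *Orm3* close to the Ctrl mean in BG38 (-0.11).

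*Orm1* and *Orm2* encode alpha-1-acid glycoproteins, abundant plasma proteins that bind basic and lipid-soluble compounds, and lie with *Orm3* on chromosome 4, *Orm1* from 63344560 to 63348163 and *Orm2* from 63362449 to 63365878, both on the plus strand. The 250 bases before the starts of *Orm2* (chr4:63362199-63362448) and *Orm3* (chr4:63355908-63356157) are shown to compare the copies. They are identical in 219 of 255 aligned positions (85.9%), and *Orm2* holds 1 C/EBP match, TTGCGCAA, from 120 bases before its start, where *Orm3* has none.
Orm2: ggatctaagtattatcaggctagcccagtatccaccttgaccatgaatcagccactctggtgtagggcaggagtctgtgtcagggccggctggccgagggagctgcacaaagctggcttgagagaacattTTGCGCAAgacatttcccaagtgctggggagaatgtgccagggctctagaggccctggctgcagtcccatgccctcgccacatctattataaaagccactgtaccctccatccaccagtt
Orm3: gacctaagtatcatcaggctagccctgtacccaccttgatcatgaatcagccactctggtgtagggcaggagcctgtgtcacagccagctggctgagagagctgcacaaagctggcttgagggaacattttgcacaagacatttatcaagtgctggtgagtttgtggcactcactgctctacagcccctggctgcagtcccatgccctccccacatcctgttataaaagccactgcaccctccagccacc

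*Orm1* was at 546 to 838 CPM in Ctrl (median 621). It was at 864 CPM in BG40, 289 CPM in BG31 and 67.4 to 132 CPM in the other 4 ABpIF/+ livers, and at 161, 1870 and 277 CPM in BG183, BG90 and BG38. BG40 was only just above the highest Ctrl liver, while the other 5 ABpIF/+ livers were all below the lowest. The log2 fold change in ABpIF/+ vs Ctrl was -1.35 (SE 0.74, edgeR adjusted p = 0.242). Without BG40 and BG90 it was -2.32 and called (edgeR adjusted p = 0.000424). In ABpIF/F vs Ctrl it went from 0.27 (edgeR adjusted p = 1) to -1.58 (edgeR adjusted p = 0.0655). As for *Saa2*, the mice left out were seen to be the highest in this gene, so the fit without them is no test of a fall.

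*Orm2* was scarce in Ctrl, at 16.7 to 27.6 CPM (median 23.9), and spread widely among mutant livers. It was at 89.5 CPM in BG40 and 15.9 CPM in BG31, and at 0.479 to 1.32 CPM, from 13 to 35 reads, in the other 4 ABpIF/+ livers. BG90 held 352 CPM, against 7.31 and 12.2 CPM in BG183 and BG38. The log2 fold changes were -0.33 (SE 1.28) in ABpIF/+ and 2.45 (SE 1.48) in ABpIF/F vs Ctrl, neither of them called (edgeR adjusted p = 1 and 0.353). *Orm2* held 2.81 to 4.23% of the counts of *Orm1* and *Orm2* in Ctrl. It held 9.39% (95% Wilson interval 9.03 to 9.76%) in BG40 and 15.8% (15.6 to 16.1%) in BG90, and 0.585 to 1.13% in the 4 ABpIF/+ livers with the lowest *Orm1*. In BG31, BG183 and BG38 it held 5.20, 4.34 and 4.21%. The summed counts of these livers, 7571, 5165 and 10457, lay below those of the Ctrl livers (17489 to 21050). The share of *Orm2* therefore did not stay fixed when the summed level changed, and it did not follow that level in every liver. Reads of near-identical copies may be split between them, which limits these shares. With copies summed (*Orm1* with *Orm2* and *Orm3*, and *Saa1* with *Saa2*), neither sum was called in any comparison. The summed *Saa* genes were at 0.48 and 2.63 and the summed *Orm* genes at -1.28 and 0.44 on the log2 scale in ABpIF/+ and ABpIF/F vs Ctrl (edgeR adjusted p = 1, 0.334, 0.299 and 1).

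**Figure D4:**
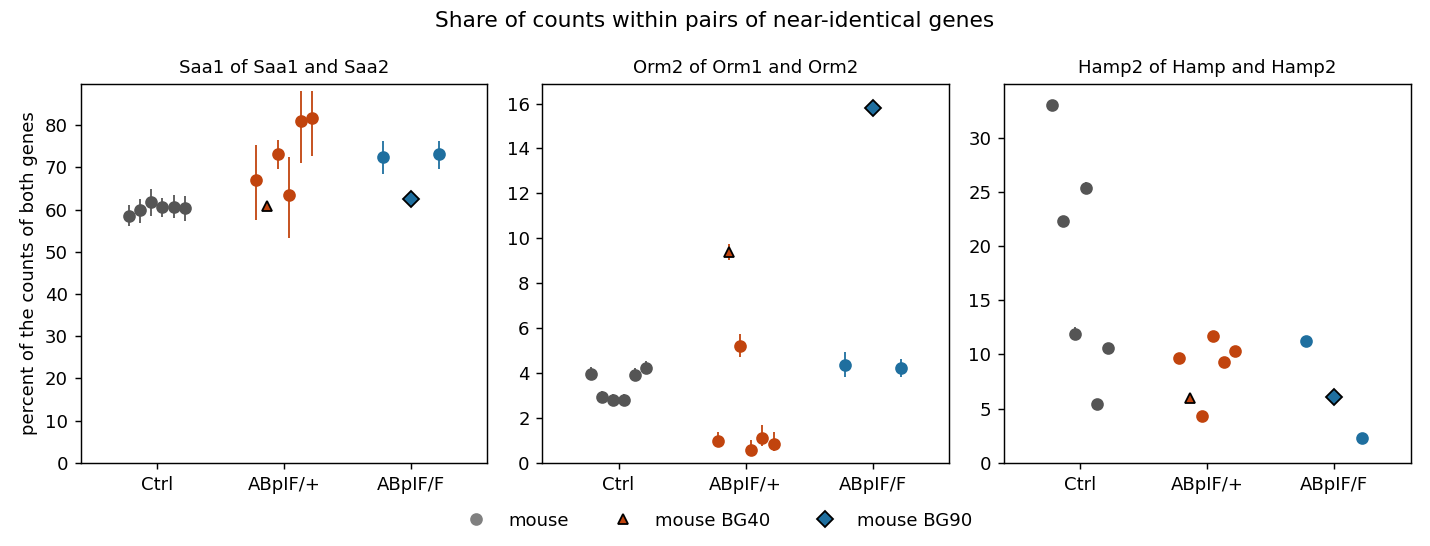
Percent of the counts of a pair of similar genes that fell on the first named (y axes), for each mouse of the 3 groups; bars are 95% Wilson intervals of the counts, the triangle is BG40 and the diamond BG90. *Orm2* takes 9.39% in BG40 and 15.8% in BG90 and at most 5.20% elsewhere, and *Hamp2* ranges from 5.41 to 33.0% among Ctrl livers.

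*Hamp* (chromosome 7, 30942368 to 30944032, minus strand) and its copy *Hamp2*, whose start is 19.4 kb away, both encode hepcidin-like peptides, of which that of *Hamp* is the iron hormone. The 250 bases before the starts of *Hamp* (chr7:30944030-30944279, minus strand) and *Hamp2* (chr7:30924182-30924431, minus strand) are shown because the promoter of hepcidin is a textbook case of joint BMP and STAT3 control. They are identical in 227 of 253 aligned positions (89.7%). *Hamp* holds a BMP response element match, GGCGCC, from 109 bases before the start and a STAT3 match, TTCTTGGAA, from 97 bases before it. *Hamp2* holds the STAT3 match, from 94 bases before its start, and no GGCGCC, a motif found in 9.59% of the promoters in the table.
Hamp: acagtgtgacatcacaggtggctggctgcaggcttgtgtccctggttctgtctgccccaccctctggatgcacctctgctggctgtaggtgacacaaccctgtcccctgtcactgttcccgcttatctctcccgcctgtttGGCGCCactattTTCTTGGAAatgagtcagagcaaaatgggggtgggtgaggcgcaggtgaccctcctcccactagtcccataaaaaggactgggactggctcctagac
Hamp2: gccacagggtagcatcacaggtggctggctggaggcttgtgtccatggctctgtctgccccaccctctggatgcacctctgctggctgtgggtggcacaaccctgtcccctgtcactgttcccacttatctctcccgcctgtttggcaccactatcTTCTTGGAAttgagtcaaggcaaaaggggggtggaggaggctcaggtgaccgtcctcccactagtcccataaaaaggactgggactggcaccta

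*Hamp* varied widely within each group. It was at 374 to 1414 CPM in Ctrl (median 622), at 509.6 to 2050 CPM in ABpIF/+ (median 1061) and at 909.9, 278 and 349 CPM in BG183, BG90 and BG38, and all groups overlapped. BG40 held the lowest value of ABpIF/+ and BG90 that of ABpIF/F mice, the opposite place to the one these mice took in *Saa1*. The log2 fold change was 0.68 (SE 0.44, edgeR adjusted p = 0.339) in ABpIF/+ and -0.60 (SE 0.55, edgeR adjusted p = 0.632) in ABpIF/F vs Ctrl. In ABpIF/+ vs ABpIF/F it was 1.28, with a 95% interval from 0.04 to 2.52 before adjustment (edgeR adjusted p = 0.162). *Hamp2* held 5.41 to 33.0% of the counts of both copies in Ctrl, 4.28 to 11.7% in ABpIF/+ and 11.2, 6.11 and 2.30% in BG183, BG90 and BG38, and it was not called in any comparison.

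Per kilobase of the longest principal transcript in GENCODE M21, the order of the medians in Ctrl was *Hamp* (1518 CPM per kb), *Hp* (986), *Orm1* (801), *Itih4* (622), *Itih3* (257.5), *Saa1* (42.4), *Orm2* (30.8), *Saa2* (26.1), *Lcn2* (9.13) and *Saa3* (5.19). The Ctrl mice of neighbours in this order did not overlap between *Orm1* and *Itih4*, *Itih4* and *Itih3*, *Itih3* and *Saa1*, and *Saa2* and *Lcn2*, and overlapped for the other neighbours. In ABpIF/+ livers *Hp* came first (median 3949 CPM per kb) before *Hamp* (2588), *Lcn2* came after *Itih4* and *Itih3* (303), and *Saa1* (4.44), *Saa3* (2.63), *Saa2* (1.97) and *Orm2* (1.35) were last, each overlapping the next. In ABpIF/F livers *Hp* (3271 CPM per kb) was above *Hamp* (852) without overlap, and *Lcn2* again followed *Itih3* (596).

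The spread between mice of 1 group set these genes apart from each other. Among Ctrl mice the SD of log2 CPM was 0.19 to 0.38 for 9 of the 10 genes and 0.75 for *Hamp*, where the median over the 9568 genes averaging 5 CPM or more was 0.23. Among ABpIF/+ mice, with a median SD of 0.19 over those genes, it was 2.64 for *Saa1*, 2.97 for *Saa2*, 3.01 for *Orm2* and 1.47 for *Orm1*, but 0.27 for *Itih3* and 0.17 for *Itih4*. Among ABpIF/F mice, with a median of 0.21, the SD of all 10 genes was at least 0.68, that of *Itih4*. *Lcn2* and *Hp*, though they rose in every mutant mouse, also spread more in ABpIF/+ than in Ctrl mice, with an SD of 1.22 against 0.32 and of 0.50 against 0.23. BG40 was the highest of the ABpIF/+ mice in 9 of the 10 genes and the lowest in *Hamp*, and BG90 the highest of the ABpIF/F mice in 8 and the lowest in *Hamp*.

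Across mice, after subtraction of the group means, the 6 pairs among *Saa1*, *Saa2*, *Orm1* and *Orm2* had a Pearson r of log2 CPM between 0.963 and 0.990 over 15 mice, and between 0.847 and 0.929 over the 13 mice without BG40 and BG90. *Saa1* had an r of 0.819 with *Lcn2* and 0.854 with *Hp*, and 0.744 and 0.653 over 13 mice. Its r with *Itih3* fell from 0.793 to 0.246 when the 2 mice were left out. *Hamp* had a negative r with all 9 other genes, from -0.689 to -0.311 over 15 mice and from -0.532 to -0.024 over 13. These are descriptions of genes that were measured in the same libraries with the same scaling, in mice that share a genotype within groups. By the same measure the genes outside the set most like its members were picked, 3 for each, from 9532 named genes averaging 5 CPM or more. *C4b*, a complement component, was among the 3 for 5 members (r of 0.955 with *Saa1*, 0.929 with *Saa2*, 0.926 with *Orm1*, 0.947 with *Orm2* and 0.889 with *Lcn2*). Over the 13 mice without BG40 and BG90 these were 0.756, 0.596, 0.655, 0.778 and 0.894. *Fga*, the fibrinogen alpha chain, was among the 3 for 5 members as well (0.888 with *Saa1*, 0.917 with *Saa2*, 0.909 with *Orm1*, 0.890 with *Orm2* and 0.904 with *Itih3*), and over 13 mice its r was 0.339, 0.508, 0.535, 0.542 and 0.749. *Hp* was most like *Lrg1*, a secreted leucine-rich glycoprotein (0.954, and 0.912 over 13 mice), and *Hpx*, the heme carrier hemopexin (0.929, and 0.826). *Hamp* was most like *Atraid* (0.925, and 0.924 over 13 mice), *Lcn2* like *Celsr1* (0.926, and 0.872), *Itih3* like *Qsox1* (0.906, and 0.682) and *Itih4* like *Serpina10* (0.910, and 0.698).

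Other genes known to rise in the acute phase were taken as a list of 34, of which 33 were found. The shares of all genes called, given above for each comparison, are the background for this list and those that follow. In ABpIF/+ vs Ctrl 15 of them were called higher and 0 lower, and their median log2 fold change was 1.03. *Cxcl1*, a neutrophil-attracting chemokine, went from 2.60 ± 0.917 to 21.1 ± 11.2 CPM (SD, n = 6 each; log2 fold change 3.01), and *Serpina3n*, a protease inhibitor, from 333 ± 43.1 to 1699 ± 733 CPM (SD, n = 6 each; 2.35). *Cd14*, the lipopolysaccharide co-receptor, rose by 2.34 on the same scale. In ABpIF/F vs Ctrl 14 were called higher and 0 lower, with a median of 1.08, led by *Cxcl1* (log2 fold change 4.77), *Il1rn*, the interleukin-1 receptor antagonist (3.49), *Cd14* (3.41) and *Apcs*, serum amyloid P (2.53). In ABpIF/+ vs ABpIF/F 0 were called higher and 2 lower, *Il1rn* (-1.74) and *Pzp*, a plasma protease inhibitor of the alpha-2-macroglobulin family (-1.17). *A2m* and *Steap4*, chosen after their values were seen, were not called. *A2m*, alpha-2-macroglobulin, was at 13.0 CPM in BG40 and at most 0.0737 CPM in the other ABpIF/+ mice, and at 22.3 CPM in BG90 and at most 1.86 CPM in the other ABpIF/F mice. *Steap4*, a metalloreductase, was at 426 CPM in BG40 and at most 59.5 CPM in the other ABpIF/+ mice, whereas BG90 at 359 CPM was close to the next ABpIF/F mouse at 270 CPM.

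Genes known to fall in the acute phase moved both ways. Of 20, 4 were called higher and 5 lower in ABpIF/+ vs Ctrl (median log2 fold change 0.23) and 4 higher and 7 lower in ABpIF/F vs Ctrl (0.13). The lower ones included the bile acid synthesis genes *Cyp8b1* (-5.96 and -4.08) and *Cyp7a1* (-2.63 and -5.09), and the drug-metabolizing *Cyp3a11* (-1.69 and -1.51) and *Cyp2e1* (-1.35 and -2.31), each called in ABpIF/+ and in ABpIF/F vs Ctrl. *Apoa1*, the main protein of high-density lipoprotein, on which serum amyloid A also travels, was higher in both (2.21 and 1.67). *Serpina6*, the corticosteroid-binding globulin, was lower in ABpIF/F than in Ctrl mice (-2.98) and higher in ABpIF/+ than in ABpIF/F mice (3.95). *Mup20* was lower in ABpIF/+ than in ABpIF/F mice (-3.57). Against Ctrl, *Mup20* was called higher in ABpIF/F mice (2.04) and was not called in ABpIF/+ mice (-1.52, edgeR adjusted p = 0.0104).

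Of the pathway that carries IL-6 and IL-1 signals, 37 genes were listed and found, and medians are over the 31 of them averaging 1 CPM or more. Among all genes averaging 1 CPM or more, 8.21% were called higher and 9.39% lower in ABpIF/+ vs Ctrl. In ABpIF/F vs Ctrl these shares were 7.53% and 5.04%. In ABpIF/+ vs Ctrl 5 of the listed genes were called higher and 2 lower, with a median log2 fold change of -0.04. *Socs3*, the feedback inhibitor that STAT3 induces, went from 4.19 ± 1.12 to 20.9 ± 15.2 CPM (SD, n = 6 each; log2 fold change 2.31, edgeR adjusted p = 0.00301), and was highest, at 48.1 CPM, in BG40. *Socs3* is also on the list of genes that rise in the acute phase and is counted among those called there. The transcription factor gene *Cebpd* (1.68) and the receptor genes *Il1r1* (1.42) and *Il22ra1* (1.26) were higher as well, and the receptor gene *Lifr* was lower (-1.04). In ABpIF/F vs Ctrl 4 were called higher and 0 lower (median 0.12): the receptor genes *Osmr* (2.71) and *Il22ra1* (1.22) and the NF-kB subunit genes *Relb* (1.95) and *Nfkb2* (1.21). Between the mutant groups *Cebpd* was called higher in ABpIF/+ mice (1.61) and *Il1a*, which is under 5 CPM in every group and is named after its value was seen, lower (-1.26). *Il1a* was also, besides *Lifr*, the other gene called lower in ABpIF/+ vs Ctrl (-1.15). In ABpIF/F vs Ctrl it was not called (0.11). *Stat3* itself (log2 fold change 0.35 in ABpIF/+ and 0.43 in ABpIF/F vs Ctrl, edgeR adjusted p = 0.313 and 0.348) and *Il6ra* and *Il6st*, the subunits of the IL-6 receptor, were not called, *Il6st* at -0.77 in ABpIF/+ vs Ctrl being under the 2-fold limit (edgeR adjusted p = 0.000729). Of the 8 cytokine genes on the list, 6 had a mean under 1 CPM in every group, *Il6* among them, and 1, *Il22*, had no read in any mouse.

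For *Hamp*, 27 of 29 listed genes of iron handling and BMP signaling were found. In ABpIF/+ vs Ctrl 2 were called higher and 1 lower, and in ABpIF/F vs Ctrl 1 and 1, with medians of 0.05 and 0.08. Of all genes averaging 1 CPM or more, 8.21% were higher and 9.39% lower in ABpIF/+ vs Ctrl. In ABpIF/F vs Ctrl these shares were 7.53% and 5.04%, so the listed genes were not called more often than those genes. *Id1*, a target of BMP and SMAD signaling, went from 8.37 ± 5.49 to 70.5 ± 27.2 CPM (SD, n = 6 each; log2 fold change 3.08) in ABpIF/+ mice, where BG40 held the lowest value, 26.4 CPM, as for *Hamp*. *Id2* was higher in both mutant groups (1.10 and 1.24), the receptor gene *Bmpr2* was lower in ABpIF/+ (-1.37) and *Ftl1*, the ferritin light chain, lower in ABpIF/F livers (-1.26). The ligand genes *Bmp2* and *Bmp6* were not called, nor was *Tfr2*. *Hfe* and *Hjv*, whose products act with that of *Tfr2* in iron sensing at the hepatocyte surface, stayed under the 2-fold limit in ABpIF/+ vs Ctrl, at -0.79 and 0.59 on the log2 scale (edgeR adjusted p = 3.18e-05 and 0.0051). Of the 27 genes, edgeR called 0 between the mutant groups.

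Glucocorticoids raise acute phase genes together with IL-6, and 9 of 10 listed glucocorticoid-responsive genes were found. In ABpIF/+ vs Ctrl 5 were called higher and 0 lower (median 1.06), led by *Fkbp5*, a chaperone of the glucocorticoid receptor (2.16), and *Zbtb16* (2.16). In ABpIF/F vs Ctrl 0 were higher and 3 lower (median -0.19), *Angptl4* (-2.94), *Tat* (-1.81) and *Tsc22d3* (-1.61). Against ABpIF/F, ABpIF/+ mice had 5 called higher and 0 lower (median 1.41). Of the 18 clock genes, 4 were called higher in ABpIF/+ vs Ctrl and 6 lower in ABpIF/F vs Ctrl. *Per1* is on both lists. The part of the glucocorticoid-responsive genes in the values of the 10 genes was not tested, and the fit with the clock score is given above for *Lcn2*, *Hp* and *Itih3*.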

How the data were processed

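RNA was sequenced from liver, and the counts hold 1 column per mouse. Whether the 2 samples that name the same mouse are separate tissue pieces, libraries or runs was not established here. The authors made stranded mRNA libraries, had the paired reads trimmed, aligned them to mm10 with HISAT2 (2.21 in the submitters' processing notes) and obtained gene counts from featureCounts 2.0.8. The annotation and strand setting of the counting were not given in the sources used here. The deposited values are raw counts per gene. Columns were mapped by mouse name, and 23 samples name 15 mice, 8 of them by 2 samples. Of the other deposited files, 5 count columns without a matching name were not used, nor were the authors' own comparisons (fold changes and p-values).

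Counts were fitted in R 4.3.3 with edgeR 4.0.16 (TMM, robust dispersions, legacy quasi-likelihood form, all 27179 genes, 3 groups in 1 fit, Benjamini-Hochberg) and compared with DESeq2 1.42.0. The log2 CPM used a prior count of 2. The fit was tested on simulated data. P-values set the differences between groups against the spread between these mice, as estimated by the fit. Positions came from GENCODE M21, promoters from RefSeq (GRCm38.p6), which held 8 of the 10 genes. The members and lists were chosen with earlier results of these data known. All 10 genes were named in every mouse, and of each list at most 4 called genes per comparison, those with the largest change among genes with at least 5 CPM in 1 group, besides family genes, transcription factors and receptors. Alternatives covered scaling, filter, tool, thresholds, covariates, summed copies and left-out mice. A few genes that these rules would name are not reported here.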

Additional observations from a re-analysis of the deposited data

Results flagged for a closer look

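Dixon's criterion was applied to the CPM of 20 sets of 6 mice, 10 genes in Ctrl and in ABpIF/+ mice. Of these, 6 held a mouse whose gap to the nearest other was a large part of the range. In 4 the mouse was BG40 among ABpIF/+ mice: *Saa1* at 202 CPM with the next mouse at 19.2, *Saa2* at 130 CPM (next 7.06), *Orm1* at 864 CPM (next 289) and *Orm2* at 89.5 CPM (next 15.9). In Ctrl *Orm1* was highest in BG3, at 838 CPM (next 634), the Ctrl mouse with the mutants' strain label, and *Itih4* was lowest in malpa387, at 1659 CPM (next 2117), the Ctrl mouse with the highest clock gene score. The 3 ABpIF/F mice were too few for this test. Chance gives about 1 in 20 only for separate sets without skew. *Saa1*, *Saa2*, *Orm1* and *Orm2* varied together across mice, so their flags are not separate results. As log2 CPM minus the Ctrl mean, *Saa1* was at 2.94 in BG40, -0.45 in BG31 and -3.63 in BG175, the lowest ABpIF/+ mouse. The criterion was not applied on that scale.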

How the results depend on the processing

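The count of members called was within 1.5 times its main value in most alternatives. In ABpIF/+ vs Ctrl it was 0 with BG3 as the only Ctrl mouse, where the lone mouse is assumed to vary like the other groups, and 6 without BG40 and BG90, a fit chosen after seeing the data. In ABpIF/F vs Ctrl it was 1 when a 4-fold change was required and 0 with a covariate for the clock genes. With that covariate the genes called in the whole table also fell, from 1883 to 899. The fit with BG3 as the only Ctrl mouse moved the count as well, as described above for *Lcn2*, *Hp* and *Itih3*. Leaving out each mouse in turn gave 3 to 4 in ABpIF/+ vs Ctrl, 3 to 4 in ABpIF/F vs Ctrl and 0 to 0 in ABpIF/+ vs ABpIF/F.

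Directions turned in genes that were not called. Leaving out 1 mouse moved the log2 fold change in ABpIF/+ vs Ctrl from -2.22 to 0.77 for *Saa1* and from -3.08 to 0.66 for *Saa2*. In ABpIF/F vs Ctrl it moved from -1.07 to 3.24 for *Saa1*, -1.90 to 3.09 for *Saa2*, -0.67 to 0.0557 for *Saa3*, -1.54 to 0.75 for *Orm1* and -1.22 to 3.00 for *Orm2*. In ABpIF/+ vs ABpIF/F it moved from -4.92 to 1.60 for *Saa1*, -5.60 to 2.30 for *Saa2*, -0.96 to 0.14 for *Lcn2*, -0.20 to 0.66 for *Hp*, -2.59 to 0.19 for *Orm1*, -5.05 to 0.88 for *Orm2* and -0.79 to 0.071 for *Itih3*. Without both mice the values were -2.22 for *Saa1* and -3.07 for *Saa2* in ABpIF/+ vs Ctrl, and -1.10 for *Saa1*, -1.93 for *Saa2*, -1.58 for *Orm1* and -1.25 for *Orm2* in ABpIF/F vs Ctrl. With BG3 as the only Ctrl mouse *Hamp* was at -0.18 in ABpIF/+ and *Orm1* at -0.16 in ABpIF/F vs Ctrl, and with the clock score *Orm1* was at -0.34. The cause was not tested.

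DESeq2 gave no adjusted p for *Saa1*, *Saa2* and *Orm2*. The other deposited table was not run as an alternative, since it names only 10 of the 15 mice; its 271790 values for these equal those used. No paired analysis was possible because the columns carry mouse names and the replicate numbers only name mice. In 4 ABpIF/+ livers 13 to 35 reads fell on *Saa2* or *Orm2*, and only 3 ABpIF/F mice were sequenced; the part of either in the absence of calls between the mutant groups was not tested.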
